A study of Oryza sativa with 12 samples.

Results

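These results follow the nup1 mutant of rice from anther stage 10 to stage 11, in genes that the study's authors had listed as different from wild type at both stages. The anther is the pollen-bearing organ. Its inner wall layer, the tapetum, feeds the developing microspores, supplies the precursors of sporopollenin (the polymer of the outer pollen wall) through Ubisch bodies on its surface, and then breaks down by programmed cell death. The series title links the study to an oxidative burst, the loss of Ubisch bodies and male sterility.

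Of 7087 genes in the 2 deposited tables, 1450 stood in both, and 1313 of these averaged 1 FPKM or more over the 6 nup1 libraries and are the members described here. FPKM counts sequenced fragments for each kilobase of a transcript, relative to all fragments mapped in the library. The other 137 genes fell under that level, and the genes nearest to it averaged 1.007 FPKM inside and 0.9993 FPKM outside. Anthers of nup1 plants were sampled at stage 10 (3 libraries) and at stage 11 (3 libraries), and wild-type anthers at the same stages (6 libraries) serve as the comparison. Poly(A) RNA was sequenced, the replicates are labelled as biological, and neither the rice variety, the gene mutated in nup1 nor the number of plants behind a library is given in the labels.

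Both tables hold only genes selected for a difference between nup1 and wild type, so the share of genes that change with stage says nothing about the genome as a whole. Nothing shows that the tables, one for each stage, were normalized together, so a shift of all stage 11 values against all stage 10 values cannot be told apart from a shift of all genes. In a whole anther, fewer cells of a type and less RNA per cell cannot be told apart either. A change is the difference of mean log2(FPKM + 1), stage 11 minus stage 10, and a gene was taken to pass where limma gave an adjusted p (Benjamini-Hochberg) under 0.01 and a fold over 2 on that scale.

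The files name genes by locus only. Symbols below were entered from recall of published assignments. Of the 28 members that belong to 1 of 18 gene lists, for 16 the RefSeq gene table holds that symbol on the locus's own chromosome (assembly ASM3414082v1). The table has no such symbol for 11, among them CYP704B2, TKPR1, ABCG26, CER1, MST8, MST6, UGP2, AGPL4 and the Rubisco loci, so these names were not checked. The symbol entered for 1 lay on another chromosome, and that locus is left without a symbol.

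The largest falls among listed genes of the pollen wall were in enzymes that make sporopollenin precursors. CYP703A3 (LOC_Os08g03682), a cytochrome P450 that hydroxylates fatty acids, stood at 333, 423 and 456 FPKM in the nup1 libraries of stage 10 and at 7.75, 1.65 and 2.37 FPKM at stage 11. The groups did not overlap, and every stage 11 library was far below every stage 10 library. The change was -6.55 ± 0.44 (SE, n = 3 libraries a stage, limma, adjusted p = 0.000227).

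CYP704B2 (LOC_Os03g07250), a second fatty acid hydroxylase of this route, stood at 913, 1092 and 1113 FPKM at stage 10. At stage 11 replicate 1 still held 90.6 FPKM, while replicates 2 and 3 held 0.973 and 1.45 FPKM. The change of -7.09 ± 1.31 passed (limma, adjusted p = 0.0048). Its call rested on the full set of libraries: dropping a single library ended it in 5 of 6 cases (all but stage 11 replicate 1), with adjusted p of up to 0.0244 (limma, without stage 10 replicate 2). Without stage 11 replicate 1 the change was -8.88. It also ended with a pseudocount of 0.1 FPKM (limma, adjusted p = 0.0108).

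TKPR1 (LOC_Os09g32020), a reductase of polyketide precursors, went from 59.2, 157 and 109 FPKM to 1.79, 2.52 and 3.47 FPKM. Here replicate 1 was the lowest of the stage 11 libraries and lay with the other replicates. The change was -4.85 ± 0.38 (limma, adjusted p = 0.000341). ABCG26 (LOC_Os10g35180), a transporter of anther lipids, went from 55.0, 45.1 and 50.3 to 13.4, 15.4 and 12.2 FPKM, a change of -1.80 ± 0.22 (limma, adjusted p = 0.0011). The calls of CYP703A3, TKPR1 and ABCG26 held in all 6 fits that left out 1 library.

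These 4 were the pollen wall and cuticle members that fell, out of 8 fitted and 22 on the list, and 0 rose. In limma 6 were lower and 1 higher at an unadjusted p under 0.05, a level that 593 of all 1313 members reached. Over all 1313 members 18.8% passed in either direction, 13.4% lower and 5.41% higher. The median change of the 8 was -2.60, against -0.23 over all members. The list was chosen with earlier results of these data known, so this count is a description.

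The remaining 4 pollen wall and cuticle members did not pass. OsC6 (LOC_Os11g37280), a lipid transfer protein secreted by the tapetum, stood at 794, 934 and 691 FPKM at stage 10 and at 496, 70.1 and 11.6 FPKM at stage 11. Replicate 1 of stage 11 lay close to the stage 10 range and the other replicates far below it. The change was -3.39 ± 1.13 (limma, adjusted p = 0.0505) and -4.74 without that library (limma, adjusted p = 0.000701). CER1 (LOC_Os02g40784), a wax synthesis gene, had a change of -1.59 ± 0.38 (limma, adjusted p = 0.0146), and it passed without the same library (-1.73, limma, adjusted p = 0.0084). RAFTIN1 (LOC_Os08g38810), a protein of Ubisch bodies, overlapped between stages, at 321, 427 and 382 FPKM and then 307, 699 and 328 FPKM (change 0.14 ± 0.39, limma, adjusted p = 0.801). In RTS (LOC_Os01g70440), which the tapetum expresses and male fertility requires, the levels were 3.79, 40.3 and 1.48 FPKM and then 21.6, 193 and 40.7 FPKM. The stages overlapped through stage 10 replicate 2, and the change was 2.85 ± 1.12 (limma, adjusted p = 0.0851).

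Proteases of tapetal cell death fell beside the pollen wall enzymes. AP25 (LOC_Os03g08790), an aspartic protease, stood at 725, 1098 and 1126 FPKM at stage 10 and at 68.6, 7.33 and 3.27 FPKM at stage 11. Replicate 1 was again the highest stage 11 library, without reaching the stage 10 range. The change was -6.16 ± 0.91 (limma, adjusted p = 0.0021). CP1 (LOC_Os04g57490), a cysteine protease, went from 53.7, 52.8 and 65.5 to 6.81, 0.0495 and 0.653 FPKM, a change of -4.61 ± 0.67 (limma, adjusted p = 0.0019).

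Both fitted members of the 4 on the cell death list thus fell, where 13.4% of all members did. The AP25 call ended without stage 10 replicate 2, stage 10 replicate 3 or stage 11 replicate 2 (limma, adjusted p = 0.0131, 0.0111 and 0.0127). The CP1 call ended without stage 10 replicate 2 or 3 (limma, adjusted p = 0.0114 and 0.0111) and with a pseudocount of 0.1 FPKM (limma, adjusted p = 0.0111). With any single library left out, the change of AP25 ran from -7.34 to -5.33 and that of CP1 from -5.46 to -4.01.

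**Figure D1:**
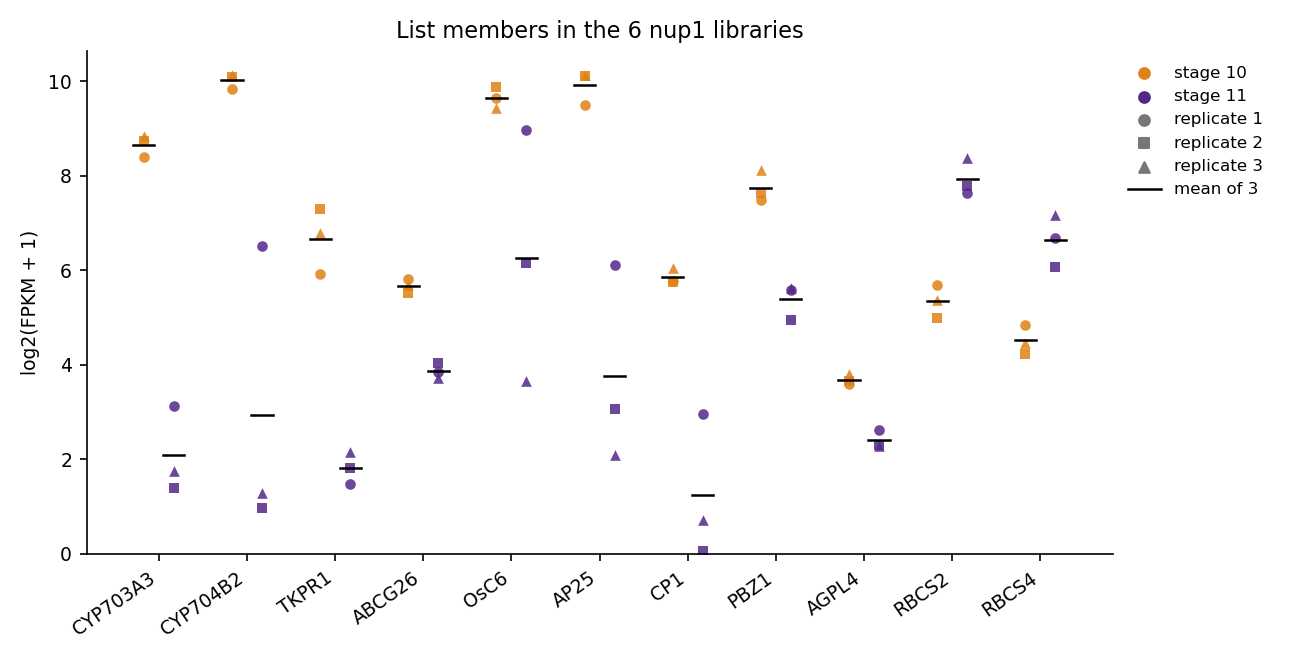
Values of 11 list members in each of the 6 nup1 libraries, as log2(FPKM + 1), with stage 10 in orange, stage 11 in purple, a marker shape for each replicate and a black line for the mean of 3 libraries. The changes of CYP703A3, CYP704B2, TKPR1, AP25 and CP1 run from -7.09 to -4.61 on this scale, stage 11 replicate 1 (purple circle) is the highest stage 11 library for CYP703A3, CYP704B2, OsC6, AP25 and CP1, and RBCS2 and RBCS4 rise.

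PBZ1 (LOC_Os12g36880), a pathogenesis-related protein of the PR10 family, was the one defence gene of 6 on its list that was fitted, and it fell. It stood at 178, 197 and 277 FPKM and then at 47.0, 30.01 and 48.3 FPKM, without overlap. The change of -2.36 ± 0.30 passed (limma, adjusted p = 0.0012) and did so whichever library was dropped.

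Of the starch and sucrose use list, 1 of 12 members was fitted, and it fell. AGPL4 (LOC_Os07g13980), a large subunit of the ADP-glucose pyrophosphorylase that starts starch synthesis, went from 11.0, 11.6 and 13 to 5.14, 3.93 and 3.86 FPKM. Its change of -1.28 ± 0.24 passed (limma, adjusted p = 0.0048), but not when any single library other than stage 11 replicate 1 was dropped (limma, adjusted p of up to 0.0351, without stage 10 replicate 3). The call ended too with a pseudocount of 5 FPKM (-0.86), median centring (limma, adjusted p = 0.0125) and quantile normalization (limma, adjusted p = 0.012).

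Of the 4 sugar supply members fitted out of 15, 0 passed in limma, and 3 had an unadjusted p under 0.05. Over all 1313 members 18.8% passed, and 593 had such an unadjusted p. MST8 (LOC_Os01g38670), a monosaccharide transporter of the anther, had 0.116, 2.39 and 0.0931 FPKM at stage 10 and 2.02, 11.6 and 6.43 FPKM at stage 11, overlapping through stage 10 replicate 2. UGP2 (LOC_Os02g02560), a UDP-glucose pyrophosphorylase, had 2.38, 1.35 and 1.99 and then 3.15, 7.91 and 8.25 FPKM. The UGP2 libraries did not overlap between stages. The changes were 2.03 ± 0.62 for MST8 and 1.28 ± 0.37 for UGP2, and neither passed (limma, adjusted p = 0.0374 and 0.0297). Both passed without stage 11 replicate 1 (2.59 and 1.66, limma, adjusted p = 0.0052 and 0.0019) and in none of the other 5 fits that dropped a library, where adjusted p reached 0.131 and 0.101 in limma. The hexose transporter MST6 (change -0.75) and the sugar exporter SWEET11 (-0.51) did not pass (limma, adjusted p = 0.0957 and 0.316). INV4, HXK10, SSIIa and GA3ox1 stood in both tables but under the level filter, at no more than 1.27 FPKM in any nup1 library.

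The hormone lists held no member that passed in limma, where 18.8% of all 1313 members did. At an unadjusted p under 0.05 in limma were 1 of 3 jasmonate and 0 of 3 gibberellin genes, against 593 of all members. Among jasmonate genes, the synthesis enzyme AOS1 (LOC_Os03g55800) stood at 229, 165 and 203 FPKM and then at 120, 124 and 102 FPKM, which did not overlap, but its change of -0.77 ± 0.26 was under 2-fold (limma, adjusted p = 0.0524). The jasmonate-conjugating enzyme JAR1 (0.42) and the repressor JAZ12 (0.02) also stayed under 2-fold. The gibberellin synthesis genes CPS1, KO2 and GA20ox3 had changes of 0.37, -0.09 and -0.61 and overlapped between the stages (limma, adjusted p = 0.443, 0.863 and 0.315). APX3, an ascorbate peroxidase, was the one fitted oxidant-removing enzyme of 27, with a change of -0.59 (limma, adjusted p = 0.271). TDL1A, a small secreted ligand in tapetum formation, had 0.613 to 3.04 FPKM in all 6 nup1 libraries and did not pass (-0.62, limma, adjusted p = 0.123).

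The Rubisco loci rose. LOC_Os12g19381, entered as RBCS2, a small subunit of the carbon-fixing enzyme of chloroplasts, went from 50.2, 30.6 and 40.4 to 198, 218 and 333 FPKM (change 2.59 ± 0.31, limma, adjusted p = 0.0011). LOC_Os12g19470, entered as RBCS4, went from 27.8, 17.8 and 21.1 to 101, 66.0 and 143 FPKM (2.12 ± 0.34, limma, adjusted p = 0.0027), a call that ended without stage 10 replicate 2 or 3 (limma, adjusted p = 0.0148 and 0.0158). The copies are near-identical, and reads may be shared between them.

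These were 2 of 13 markers of green tissue, and the other 11 were not in both tables. Their summed level was 48.4 to 78.0 FPKM at stage 10 and 284 to 476 FPKM at stage 11 in nup1, and 123 to 216 and then 527 to 948 FPKM in wild type. The part of green wall cells in other changes was not tested. Of the 17 meiosis, 6 floral organ, 4 stamen identity and 3 late pollen MADS markers, 0 were in both tables. A locus of the metallothionein list (LOC_Os01g05650) had a change of 1.42 ± 0.31 and missed the threshold (limma, adjusted p = 0.0101), although its stages did not overlap (24.7, 43.2 and 33.3 and then 94.6, 114 and 67.0 FPKM). It passed when libraries were median centred (limma, adjusted p = 0.0026). So did the heat shock list's LOC_Os04g01740 (1.44 as deposited and 1.70 when centred, limma, adjusted p = 0.0193 and 0.0037).

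Over all lists 10 of 28 fitted members passed, 8 lower and 2 higher. Over all 1313 members 18.8% passed, 13.4% lower and 5.41% higher. The lists were chosen with earlier results of these data known, so the count of list members is a description. It ran from 5 (without stage 10 replicate 2, and again without stage 10 replicate 3) to 14 (without stage 11 replicate 1) when 1 library was left out.

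Across all members, 247 of 1313 passed, 176 lower and 71 higher at stage 11. The 176 that fell had a median change of -2.36, and 24 of them lay under 1 FPKM in every stage 11 library. Summed over these genes, FPKM went from 25721 ± 3705 at stage 10 to 1906 ± 1252 at stage 11 (SD, n = 3). The 71 that rose had a median change of 1.87 and a summed level of 627 ± 113 and then 4186 ± 675 FPKM. The 1066 that did not pass summed to 30125 ± 530 and then 27401 ± 3745 FPKM. The stages did not overlap in 49% of all members, and in each of the 247.

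All members together summed to 54065 to 60188 FPKM in the stage 10 nup1 libraries and to 29016 to 36958 FPKM at stage 11, without overlap. The exact two-sided permutation test gave p = 0.1, the smallest that 3 against 3 libraries allow. In wild type the ranges were 72213 to 105922 and 79036 to 87134 FPKM.

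Outside the lists, the largest falls were at LOC_Os02g45530 and LOC_Os04g33150. The first went from 1071, 1273 and 1351 to 33.9, 0.121 and 0 FPKM, a change of -8.50 ± 1.23 (limma, adjusted p = 0.0019). The second went from 296, 423 and 510 to 16.91 FPKM in replicate 1, and it is listed at 0 in replicates 2 and 3 (change -7.26 ± 1.03, limma, adjusted p = 0.0018). Both calls ended without stage 10 replicate 2 (limma, adjusted p = 0.012 and 0.0114), and the first also without stage 11 replicate 2 (limma, adjusted p = 0.0104).

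The largest rises were at LOC_Os12g02340 and LOC_Os11g02424. LOC_Os12g02340 had 7.34, 48.0 and 4.41 FPKM at stage 10 and 643, 1244 and 1072 FPKM at stage 11 (change 6.19 ± 0.76, limma, adjusted p = 0.0011). LOC_Os11g02424 had 18.2, 40.8 and 7.38 and then 352, 348 and 466 FPKM (4.35 ± 0.54, limma, adjusted p = 0.0011). At both loci stage 10 replicate 2 was the highest of its stage, and both calls held in all 6 fits that left out 1 library.

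**Figure D2:**
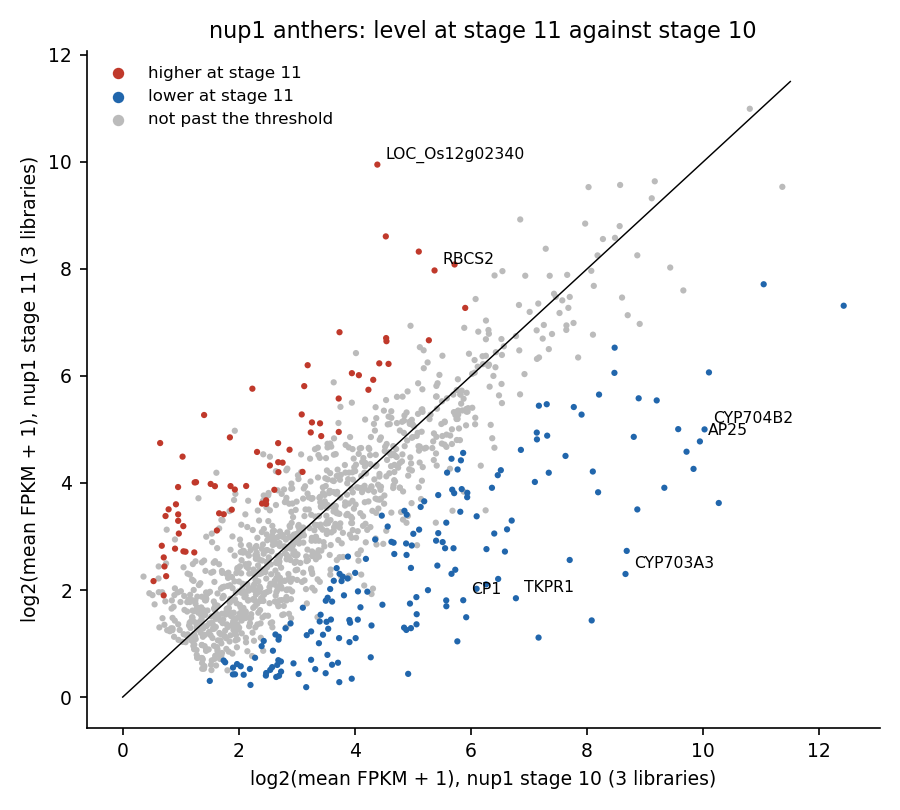
Mean level of each of the 1313 members in nup1 at stage 11 against stage 10, as log2(mean FPKM + 1) over 3 libraries a stage, with the line of equal levels. The 176 genes that fell (blue) reach further from the line than the 71 that rose (red), and many of them are among the most abundant at stage 10.

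The balance of falls and rises depended on how libraries were scaled. As deposited, 71.3% of the calls were lower and the median change of all members was -0.23. Median centring moved the median change to 0.04 and gave 121 higher and 161 lower (57.1% lower). Quantile normalization moved it to 0.13 and gave 148 higher and 155 lower (51.2% lower). Median centring assumes that the typical member does not change, and quantile normalization that all libraries share the same distribution of values. A table of selected genes shows neither. Taking away the median stage change of wild type (-0.02) gave 75 higher and 171 lower. The falls of CYP703A3, CYP704B2, TKPR1, ABCG26, AP25, CP1 and PBZ1 and the rises of both Rubisco loci passed under each of these scalings.

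Stage 11 replicate 1 stood apart from the other nup1 libraries of its stage. It differed over 2-fold from both of them in 13.6% of members, against 3.96% and 6.70% for replicates 2 and 3. Across members its log2 values correlated with the stage 10 nup1 libraries at r = 0.754 to 0.817, while those of replicates 2 and 3 did so at 0.562 to 0.662. Genes are not independent replicates, and these values are descriptions.

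Its position between the stages was measured in genes picked from the other libraries. Among the 363 genes that were over 2-fold lower in stage 11 replicates 2 and 3 than at stage 10, replicate 1 had gone a median of 53.6% of the distance on the log2 scale (quartiles 27.1% and 75.5%). In 46.0% of these genes it lay nearer to the stage 10 mean. Measured in the same way, replicates 2 and 3 stood at 109% and 123%. In 163 genes that were higher, replicate 1 stood at 78.4%. At stage 10, replicate 2 stood at 73.5% for rising genes and at 94.5% for falling ones.

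**Figure D3:**
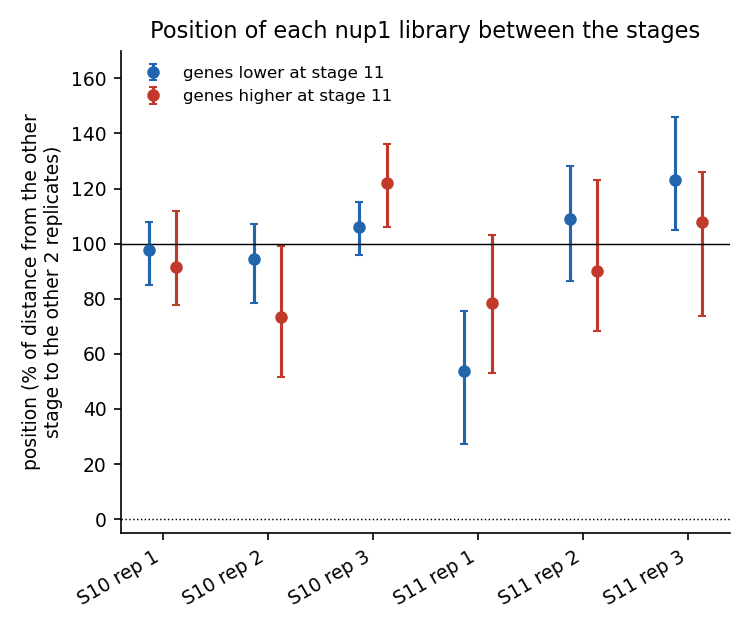
Position of each nup1 library on the way from the mean of the other stage (0%) to the mean of the other replicates of its own stage (100%), as the median and quartiles over genes that differ over 2-fold between those means, blue for genes lower and red for genes higher at stage 11. Stage 11 replicate 1 sits at 53.6% for falling genes, and the other 5 libraries sit between 94.5% and 123%.

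Without stage 11 replicate 1, 395 genes passed, 291 lower and 104 higher, and 246 of the 247 calls made with it were among them. Leaving out any other library lowered the count, to between 85 (without stage 10 replicate 3) and 140 (without stage 11 replicate 3). The counts without stage 10 replicate 1, stage 10 replicate 2 and stage 11 replicate 2 were 110, 110 and 126. The labels give no sampling time within a stage, and whether this library holds younger anthers was not tested.

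The next question was where nup1 departed from the course of wild type between the same stages. A scaling of a whole table cancels in this comparison for levels far above the added 1 FPKM. For levels near or under 1 FPKM, such as those of CPS1 and LOC_Os10g35800 in nup1, it does not fully cancel. CYP704B2, CP1, LOC_Os04g33150 and LOC_Os02g45530 lay under 1 FPKM in wild type at stage 11. There the added 1 FPKM also narrows the wild-type fall. A scaling between the genotypes within a stage does not cancel at any level. Values for wild type are changes of mean log2(FPKM + 1) over 3 libraries a stage, and the difference is the interaction contrast over all 12 libraries. It passed in 265 of 1313 members (20.2%), with a more negative change in nup1 in 190 (14.5%) and a more positive one in 75 (5.71%). Genes had been selected for genotype differences at both stages in these libraries, so the shares describe the selected genes. Where the authors list opposite directions at the 2 stages, as for CYP703A3, TKPR1 and AGPL4, this selection favours a large difference. For such genes the adjusted p and the fits with a library dropped are descriptions. The median difference was -0.17, and quantile normalization moved it to 0.11 and gave 156 more negative and 111 more positive. With a filter at 5 FPKM, 147 differences passed, 85 more negative and 62 more positive.

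The cell death proteases and CYP704B2 were also far lower at stage 11 in wild type, where the stage change alone was not tested. CYP704B2 changed by -7.13 there, from 129 to 327 FPKM at stage 10 to 0.281 to 0.803 FPKM at stage 11, and the difference from nup1 was 0.04 ± 1.52 (limma, adjusted p = 0.994). A further fit left out nup1 stage 11 replicate 1 and wild-type stage 10 replicate 2, a choice made after seeing the data. These libraries differed from both other replicates in the most members (13.6% and 10.8%). The difference of CYP704B2 was then -1.39 and passed (limma, adjusted p = 0.0077). Its remaining stage 11 levels in both genotypes (0.973 and 1.45 FPKM in nup1) lay near the added 1 FPKM. This fit was not tested with another pseudocount. AP25 changed by -4.88 in wild type (difference -1.28 ± 1.15, limma, adjusted p = 0.503) and CP1 by -2.67 (difference -1.94 ± 0.83, limma, adjusted p = 0.111). The CP1 difference passed without nup1 stage 11 replicate 1 (-2.80, limma, adjusted p = 0.00088). At the Rubisco loci the wild-type changes were 2.29 and 2.24, and the differences of 0.30 ± 0.46 and -0.12 ± 0.54 did not pass (limma, adjusted p = 0.742 and 0.926). For OsC6 the wild-type change was -3.48 and the difference 0.09 ± 1.29 (limma, adjusted p = 0.976). Outside the lists, LOC_Os12g02340 and LOC_Os11g02424 changed by 4.29 and 3.58 in wild type, and LOC_Os04g33150 and LOC_Os02g45530 by -4.93 and -3.06. Their differences of 1.90, 0.77, -2.33 and -5.44 did not pass (limma, adjusted p = 0.255, 0.511, 0.2255 and 0.0346). Without nup1 stage 11 replicate 1, those of LOC_Os04g33150 and LOC_Os02g45530 passed (-3.71 and -7.12, limma, adjusted p = 0.000865 and 0.000611).

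Other falls in nup1 were steeper than in wild type. CYP703A3 had a change of -1.003 in wild type, where it stood at 5.93 to 50.2 FPKM at stage 10 and at 9.35 to 13.2 FPKM at stage 11, and the difference was -5.55 ± 0.90 (limma, adjusted p = 0.000504). TKPR1 had 3.40 to 5.34 and then 5.25 to 7.93 FPKM in wild type, and its difference was -5.51 ± 0.49 (limma, adjusted p = 1.22e-05). For ABCG26 the wild-type range was 88.8 to 120 and then 81.2 to 94.3 FPKM, with a difference of -1.60 ± 0.32 (limma, adjusted p = 0.0019). PBZ1 stayed at 15.8 to 25.3 FPKM in all 6 wild-type libraries, and its difference was -2.34 ± 0.40 (limma, adjusted p = 0.000742). These 4 calls held whichever of the 12 libraries was dropped.

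Other genes were higher at stage 11 in every wild-type library, without overlap, and had a more negative change in nup1. Each fitted gene of gibberellin synthesis was among them, 3 of 3, from a list of 8, where the difference was more negative in 14.5% of all members. CPS1 (LOC_Os02g17780), which makes the first committed precursor, had 1.49 to 8.74 FPKM in wild type at stage 10 and 39.8 to 55.2 FPKM at stage 11, while all 6 nup1 libraries stayed between 0.652 and 2.75 FPKM. KO2 (LOC_Os06g37364), an oxidase of the next steps, had 12.9 to 16.8 and then 64.4 to 87.5 FPKM in wild type, and 4.07 to 9.93 FPKM over both stages in nup1. KO2 has tandem copies on its chromosome, and reads may be shared with them. GA20ox3 (LOC_Os07g07420), an oxidase of late steps, had 88.0 to 214 and then 457 to 561 FPKM in wild type, and 5.58 to 20.4 FPKM in nup1.

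The differences were -3.05 ± 0.63 for CPS1, -2.46 ± 0.41 for KO2 and -2.61 ± 0.60 for GA20ox3 (limma, adjusted p = 0.0025, 0.000628 and 0.005). With 1 library left out those of CPS1 and KO2 held in all 12 fits. The CPS1 difference ended with a pseudocount of 0.1 FPKM (limma, adjusted p = 0.0179). That of GA20ox3 ended in 8 of 12 fits (those without wild-type stage 10 replicate 1 or 3, wild-type stage 11 replicate 1 or 3, nup1 stage 11 replicate 3, or any nup1 stage 10 library), with adjusted p of up to 0.0152 in limma. It also ended with quantile normalization (limma, adjusted p = 0.0143).

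AGPL4 went in wild type from 3.79 to 4.72 FPKM at stage 10 to 21.3 to 35.1 FPKM at stage 11, against the fall in nup1, and the difference of -3.69 ± 0.33 (limma, adjusted p = 1.22e-05) held whichever library was dropped. TDL1A had 2.22 to 9.63 and then 16.2 to 20.6 FPKM in wild type (difference -2.51 ± 0.54, limma, adjusted p = 0.0035). That call ended in 4 of 12 fits, without wild-type stage 10 replicate 3, wild-type stage 11 replicate 1, nup1 stage 10 replicate 3 or nup1 stage 11 replicate 3 (limma, adjusted p of up to 0.0121). UGP2 had 7.23 to 14.2 and then 83.4 to 143 FPKM in wild type against 1.35 to 2.38 and then 3.15 to 8.25 FPKM in nup1, which also did not overlap (difference -2.06 ± 0.51, limma, adjusted p = 0.0075). Its call ended in 7 of 12 fits, those without wild-type stage 10 replicate 1 or 3, wild-type stage 11 replicate 1 or 3, or any nup1 stage 10 library (limma, adjusted p of up to 0.0234). It also ended with a pseudocount of 0.1 FPKM (limma, adjusted p = 0.0369), median centring (limma, adjusted p = 0.0215) and quantile normalization (limma, adjusted p = 0.0808).

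Over all members the wild-type change had a median of -0.02 and quartiles of -0.61 and 0.64. It enters the difference itself, so the following counts are descriptions. In 94 of the 190 genes with a more negative difference, the wild-type level was over 2-fold higher at stage 11, and 71 of these did not pass in nup1. Of the 190, 96 fell in nup1 and 0 rose. Of the 75 genes with a more positive difference, 48 had a wild-type level over 2-fold lower at stage 11, and 36 of these did not pass in nup1. Over all 1313 members 1066 did not pass in nup1, 176 fell and 71 rose. How many of all members changed over 2-fold in wild type was not counted. Of the 176 genes that fell in nup1, 109 (61.9%) also had a negative wild-type change, 70 of them over 2-fold. For 79 of the 176 the difference between the genotypes did not pass. Of the 71 that rose, 42 (59.2%) had a positive wild-type change and for 40 the difference did not pass. Across the 1313 members, which are not independent replicates, the change in nup1 and that in wild type correlated with r = 0.39 (Pearson) and rho = 0.25 (Spearman).

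Among loci without a symbol, the most negative differences were at LOC_Os10g35800 and LOC_Os02g05670. LOC_Os10g35800 went from 7.63, 6.24 and 9.96 FPKM in nup1 to at most 0.230 FPKM, and in wild type from 1.02 to 3.38 FPKM to 56.7 to 71.1 FPKM (difference -7.61 ± 0.43, limma, adjusted p = 5.71e-07). LOC_Os02g05670 went from 2.76, 3.87 and 4.07 to 1.32 FPKM and 2 libraries listed at 0 in nup1, and reached 66.1 to 162 FPKM in wild type (difference -7.09 ± 0.54, limma, adjusted p = 5.15e-06). The most positive were at LOC_Os03g59330 and LOC_Os06g21270. LOC_Os03g59330 had 15.7, 16.1 and 2.45 and then 55.1, 55.0 and 63.6 FPKM in nup1, against 54.2 to 90.3 and then 1.41 to 5.82 FPKM in wild type (difference 6.58 ± 0.78, limma, adjusted p = 7.62e-05). LOC_Os06g21270 had 21.7, 23.6 and 11.4 and then 65.6, 54.6 and 59.3 FPKM in nup1, against 26 to 49.4 and then 1.06 to 2.11 FPKM (difference 5.66 ± 0.45, limma, adjusted p = 6.65e-06). All 4 differences passed whichever library was dropped. The authors' deposited tables list all 4 loci in opposite directions at the 2 stages, a selection that itself favours a large difference. These adjusted p values and fits are therefore descriptions.

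**Figure D4:**
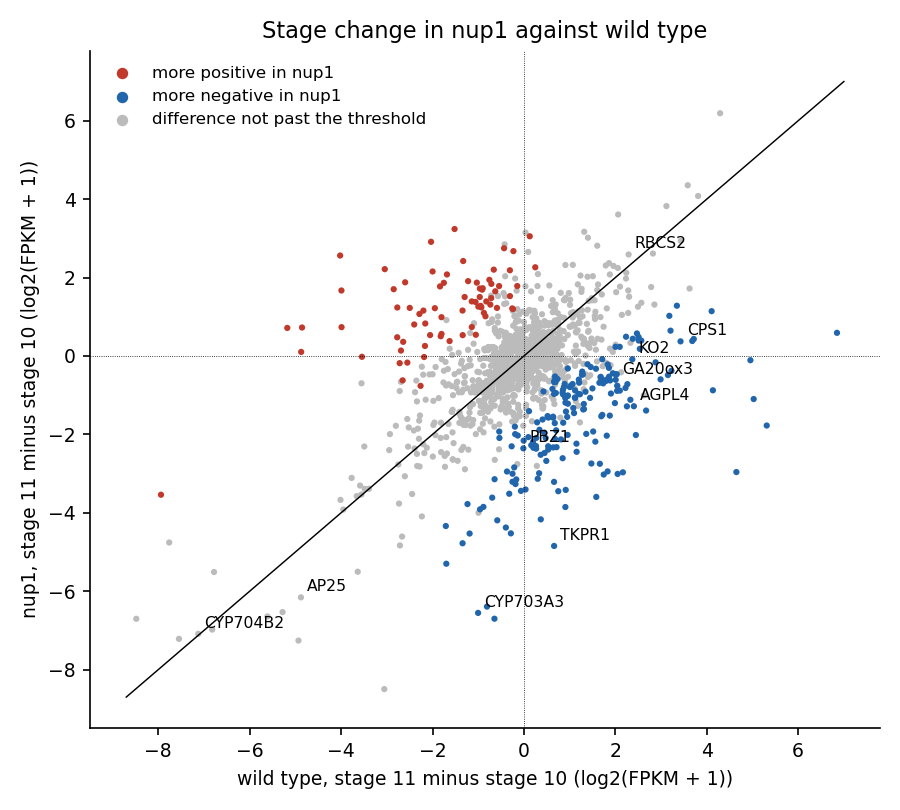
Change from stage 10 to stage 11 in nup1 against the change in wild type for the 1313 members, both as log2(FPKM + 1) differences of 3-library means, with the line of equal change. CYP704B2, AP25 and RBCS2 lie near the line, while CYP703A3, TKPR1, CPS1, KO2, GA20ox3, AGPL4 and PBZ1 lie below it among the 190 genes with a more negative change in nup1 (blue), and 75 genes have a more positive one (red).

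Grouped by the direction in the authors' deposited tables, nup1 against wild type at each stage, the stage changes ran as follows. These directions come from the same nup1 libraries, so the counts are descriptions. Over all members 13.4% fell and 5.41% rose from stage 10 to stage 11. Of 522 members that the authors' deposited tables list as higher in nup1 at both stages, 83 fell (15.9%) and 5 rose (0.958%). CYP704B2, AP25, CP1 and PBZ1 belong to this group. Of 115 listed as higher and then lower, among them CYP703A3, TKPR1 and AGPL4, 79 fell (68.7%) and 0 rose. Of 80 listed as lower and then higher 33 rose (41.2%) and 0 fell. Of 596 listed as lower at both stages, 33 rose (5.54%) and 14 fell (2.35%). The median level of these 596 in nup1 was 4.18 FPKM at stage 10 and 4.06 FPKM at stage 11. The Rubisco loci and the gibberellin genes belong to this last group.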

How the data were processed

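Anther poly(A) RNA was sequenced as pairs of reads. Per the labels' protocols, the series design text and the submitters' processing notes, HISAT2 placed the reads on the MSU rice genome (release 7) and Cufflinks quantified them. Versions, not given in the sources used here, stay unnamed. The authors deposited FPKM for each library in 2 tables of genes called different between genotypes, beside the direction called. Fragment depth is unknown. Ratios of small FPKM between replicates were compared with small whole-number steps over a range of assumed relative depths. At the depth with the most matches 7.27% to 41.5% fell on steps, against 1.52% to 1.77% averaged over depths. This was too few to recover counts.

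The tables were joined by locus. Values were compared as log2(FPKM + 1) with limma 3.58.1 in R 4.3.3 (trend, Benjamini-Hochberg over 1313 genes). In tests on simulated data with 1313 genes, changes of 3 on the log2 scale were recovered in 86% of changed genes for the stage comparison. For the difference between genotypes the share was 84%. Changes of 1.5 were recovered in 46% and 26%, in the same order. These shares describe the simulated data only. Recovery in the deposited libraries, where a nup1 replicate stood apart from the others of its stage, was not tested.

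Members and lists were chosen with earlier results of these data known. Named genes are all fitted list members, the 2 largest rises and falls (calls whose nup1 libraries did not overlap, with a group at 10 FPKM or more), and the 2 largest differences from wild type of each sign by the same rule. Of 200 list members, 113 had a symbol that the reference places on the chromosome of the locus, 82 had none there and 5 had it elsewhere. The lists with 0 fitted members were late pollen MADS, respiratory burst oxidases, meiosis, floral organs, stamen identity and housekeeping. No sequences were used. Alternatives covered the pseudocount, filter, scaling, spread, block and each library.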

Additional observations from a re-analysis of the deposited data

Results flagged for a closer look

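The stage change differed between nup1 and wild type, by the interaction contrast, in 265 members. Among named genes the difference (nup1 minus wild type, log2 scale) was -5.55 for CYP703A3, -5.51 for TKPR1, -1.60 for ABCG26, -2.51 for TDL1A, -2.06 for UGP2, -3.69 for AGPL4, -2.61 for GA20ox3, -3.05 for CPS1, -2.46 for KO2 and -2.34 for PBZ1. It was -7.61 for LOC_Os10g35800, -7.09 for LOC_Os02g05670, 5.66 for LOC_Os06g21270 and 6.58 for LOC_Os03g59330. Each was listed because the difference itself passed in limma. Groups of 3 libraries are too small for the test of single outlying samples.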

How the results depend on the processing

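With 1 library left out, the stage comparison gave 85 to 395 calls (247 with all), 15 to 104 higher and 70 to 291 lower, and 5 to 14 list members called. The difference between genotypes gave 204 to 322 calls, 62 to 83 more positive and 142 to 239 more negative. Higher calls numbered 121 with median centring, 148 with quantile normalization and 113 with the spread shared over 12 libraries. A filter at 5 FPKM left 821 genes and 147 differences, 85 of them more negative. Without nup1 stage 11 replicate 1 and wild-type stage 10 replicate 2, an alternative chosen after seeing the data, 298 differences were more negative, and that of CYP704B2 turned from 0.04 to -1.39 (it ran from -1.76 to 1.01 with 1 library left out). Apart from the replicate block, the other alternatives moved these counts by at most 1.5 times. Replicate numbers did not pair the nup1 libraries (correlations of deviations -0.04, 0.18 and -0.002), and only replicate 2 correlated best with its own number. With the replicate block, 47 genes were higher and 129 lower, and 169 of the 176 calls were shared with the fit without it. Among named genes the block made the stage changes of RTS and MST8 pass (limma, adjusted p = 0.0062 and 0.0085) and ended those of AGPL4, LOC_Os02g05670 and LOC_Os06g21270 (limma, adjusted p = 0.0179, 0.0196 and 0.0106). For the difference from wild type it made that of MST8 pass and ended that of UGP2 (limma, adjusted p = 0.0067 and 0.016). It changed no other call of a named gene. The cause of these shifts was not tested.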

Other observations

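Along the chromosomes, the share of members that fell in nup1 ran from 6.12% of 98 on chromosome 7 to 23.0% of 74 on chromosome 8, against 13.4% over all members. The share that rose ran from 2.61% of 115 on chromosome 5 to 12% of 75 on chromosome 10, against 5.41% over all members. Among 194 pairs of neighbouring members (locus numbers at most 50 apart), both fell in 5 pairs and both rose in 1. In 2 pairs a member fell and its neighbour rose. Of those 5 pairs, 3 formed a run of 4 consecutive members on chromosome 10, with changes of -3.85, -4.76, -3.54 and -3.39. Neighbouring copies of a gene can share reads, which was not tested here. Over all 194 pairs the changes of neighbours had a Pearson's r of 0.028 across genes. The run was singled out after its values were seen.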
